A study of Mus musculus with 20 samples.

Results

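The EGR and NR4A genes encode transcription factors whose transcripts rise soon after a cell is stimulated, often through Ca2+-dependent signals. *Egr1*, *Egr2*, *Egr3*, *Nr4a1*, *Nr4a2* and *Nr4a3* were taken by gene symbol, 6 of the 21963 gene entries of the count table, and all 6 were among the 11707 genes tested. RNA was sequenced from bone marrow-derived macrophages (BMDMs) in 20 libraries: 4 of untreated WT cells, 5 of WT cells given zymosan for 3 h, 4 of WT cells given zymosan with BAPTA-AM, 4 of untreated Mcu-/- cells and 3 of Mcu-/- cells given zymosan for 3 h. Zymosan, a yeast cell wall preparation that engages TLR2 and dectin-1 on macrophages, was used at 2 particles per cell. BAPTA-AM, a Ca2+ chelator that enters cells and is trapped there, was used at 10 uM. BAPTA-AM without zymosan, and BAPTA-AM in Mcu-/- cells, were not analysed here. According to the study's methods, the cells came from young adult mice of both sexes, and Mcu-/- denotes a floxed *Mcu* recombined by Cx3cr1-cre, a Cre driven by a chemokine receptor gene of the myeloid lineage. The cre status of the WT mice is not given in the sources used here. The labels call the replicates biological and tie no library to an animal, so p-values measure the spread between these libraries.

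EGR proteins are zinc finger factors that bind GC-rich sites and are restrained by the corepressors NAB1 and NAB2, which some EGR targets encode in turn. NR4A proteins are orphan nuclear receptors that act without a classical ligand, binding the NBRE motif alone or, for NR4A1 and NR4A2, other sites with a retinoid X receptor. A rise in cytosolic Ca2+ reaches these genes through CREB and its CRTC coactivators, through MEF2 once class IIa histone deacetylases leave the nucleus, through calcineurin and NFAT, and through the serum response factor SRF with its ternary complex partners. MCU is the pore through which mitochondria take up Ca2+ from the cytosol.

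The upstream sequences show how the NR4A genes differ from *Egr2* in the letters these factors are known to read, and are given for the 4 members that the RefSeq promoter table (GRCm38.p6) holds. Each runs 5′ to 3′ on the strand of the gene and ends before the first base that GENCODE M21 annotates as an exon there. Capitals mark CArG boxes (the SRF site, CC, then 6 A or T, then GG), CRE cores (TGACG, or CGTCA on the other strand), EGR sites (GCGTGGGCG or GCGGGGGCG, or their complements) and TATA boxes (TATAAA or TTTATA). Neither the full CRE TGACGTCA nor the NBRE AAAGGTCA, searched on both strands, occurred in these stretches, and no capital run is shared between motifs.
Egr2: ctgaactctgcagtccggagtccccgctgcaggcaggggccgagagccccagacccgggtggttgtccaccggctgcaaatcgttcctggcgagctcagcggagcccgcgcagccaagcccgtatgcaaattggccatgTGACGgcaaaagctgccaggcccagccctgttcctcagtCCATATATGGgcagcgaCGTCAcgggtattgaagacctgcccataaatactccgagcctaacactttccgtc
Nr4a1: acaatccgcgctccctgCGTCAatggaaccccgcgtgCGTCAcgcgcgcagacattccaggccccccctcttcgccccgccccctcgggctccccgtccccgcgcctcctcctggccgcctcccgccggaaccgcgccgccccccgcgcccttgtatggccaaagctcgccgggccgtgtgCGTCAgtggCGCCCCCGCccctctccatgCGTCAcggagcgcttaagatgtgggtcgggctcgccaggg
Nr4a2: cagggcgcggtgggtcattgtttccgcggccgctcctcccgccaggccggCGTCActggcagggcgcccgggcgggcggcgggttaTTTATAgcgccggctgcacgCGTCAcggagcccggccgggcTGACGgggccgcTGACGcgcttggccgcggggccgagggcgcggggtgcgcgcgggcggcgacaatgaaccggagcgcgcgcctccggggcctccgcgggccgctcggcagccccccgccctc
Nr4a3: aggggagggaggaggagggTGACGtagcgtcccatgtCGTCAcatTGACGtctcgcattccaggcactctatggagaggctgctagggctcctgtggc
The *Egr2* stretch is chr10:67537619-67537868 on the plus strand, the *Nr4a1* stretch chr15:101266596-101266845 on the plus strand, the *Nr4a2* stretch chr2:57124004-57124253 on the minus strand and the *Nr4a3* stretch chr4:48045055-48045152 on the plus strand.

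In the 250 bases before the RefSeq start, *Nr4a1*, *Nr4a2* and *Nr4a3* held 4 CRE cores each. Of all 32851 promoter windows of that length in the table, 17.8% held at least 1 core and 0.137% held at least 4. The *Nr4a3* start used by RefSeq lies inside the first GENCODE exon, so only 98 of its 250 bases are printed, with 3 of the 4 cores. *Egr2*, which has 5 RefSeq windows, held a CArG box in 4 of them, a motif found in 1.47% of all windows, with a core on each side of the box in 3 of those 4. Those 3 windows overlap and hold the same box and the same cores. The EGR site GCGGGGGCG was in 2.57% of all windows and GCGTGGGCG in 0.536%, and among these members only *Nr4a1* held one, on the minus strand. A TATA box, in 12.4% of all windows, was found before *Nr4a2*, and *Nr4a2* was the only member window with one. The full CRE was in 1.55% and the NBRE in 1.34% of all windows. These matches describe letters and not occupied sites.

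Libraries held 14.4 to 24.0 M counts. *Mcu* ranged from 126 to 197 normalized counts over the 13 WT libraries and from 54.2 to 83.4 over the 7 Mcu-/- ones, without overlap, and was lower in Mcu-/- cells both untreated (log2 fold change -1.14, edgeR adjusted p = 0.000163) and with zymosan (-0.82, edgeR adjusted p = 9.61e-05). A normalized count is the count per M reads (CPM) of the TMM-scaled library times 20.6, the mean library size in M. Untreated Mcu-/- replicate 4 stood apart from its 3 partners, differing from them by a chi-square averaging 209 to 217 per gene, where the 28 pairs of other replicates averaged 1.60 to 6.20. Variation between replicates (the biological coefficient of variation) came to 12.4% with that library and 3.56% without it. Results of the EGR and NR4A genes are given both ways where a call changed. Counts from the gene lists further below are from all libraries unless stated, and several of them change without that library. *Fcer1a*, a mast cell marker, was at 0 and Ly6g and the T cell CD3 genes at 2 counts or fewer in every library, but other markers of these and other cell types were detected, among them *S100a9* at up to 60 counts, *Lck* at up to 29, *Xcr1* at up to 212 and *Cd79b* at up to 1497. The 5 stromal cell markers summed to 55.1 to 137 normalized counts in WT, 22.6 to 57.9 in untreated Mcu-/- replicates 1 to 3, 584 in replicate 4 and 908 to 1079 in Mcu-/- cells with zymosan, nearly all of it *Col1a1*, *Col1a2* and *Col3a1*, with *Dcn* at 8.20 or fewer. The 8 macrophage markers summed to 275384 to 283322 normalized counts in untreated WT cells, 331535 to 337988 in WT cells with zymosan, 295265 to 300179 with BAPTA-AM and 214593 to 221989.5 in Mcu-/- cells with zymosan, and to 297241 to 304659 in untreated Mcu-/- replicates 1 to 3 and 176403 in replicate 4. Members of the macrophage list did not all move together. *Adgre1* with zymosan was 97978 to 104331 in WT and 56687 to 59985 in Mcu-/- cells. *Csf1r* went the other way, from 10855 to 12088 in WT to 21895 to 22827 in Mcu-/- cells. With zymosan the 5 B cell markers, mostly *Cd79b*, summed to 634 to 772 in WT and 268 to 280.0 in Mcu-/- cells, and the 8 neutrophil markers to 70.0 to 109.7 and 10.3 to 15.8. The part of these markers in the differences between genotypes was not tested, and in bulk RNA fewer cells of a type and less RNA per cell cannot be told apart.

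Zymosan raised all 6 EGR and NR4A transcripts in WT macrophages, from 1.87-fold for *Nr4a1* to 32.7-fold for *Nr4a3*, against 32.4% of all tested genes called higher and 36.8% called lower. No member had overlapping libraries between these groups, nor did 69.5% of all tested genes. BAPTA-AM lowered 3 of the 6 under zymosan (*Egr2*, *Nr4a1* and *Nr4a3*) and raised none at an unadjusted p under 0.05 by edgeR or at an adjusted p by DESeq2, against 6.33% of all genes called lower and 6.43% called higher. Over 27 alternative fits the number lowered ran from 1 to 4, and of these 3 only *Nr4a3* was called in all. A fit of those groups alone called *Nr4a2* higher. For *Egr2*, *Nr4a1* and *Nr4a3* the zymosan libraries with and without the chelator did not overlap, nor did they for 24.3% of all tested genes. With zymosan and BAPTA-AM together, 4 of the 6 (5 by DESeq2, which added *Egr2*) were still called above untreated WT cells, against 31.9% of all genes higher and 34.2% lower. Zymosan-stimulated Mcu-/- cells had more *Egr1* and *Nr4a2* and less *Egr3* and *Nr4a3* than WT cells, 2 of 6 in each direction, against 31.8% of all genes called higher and 30.3% called lower. Libraries of the genotypes did not overlap for 5 of the 6, all but *Nr4a1*, and for 64.0% of all tested genes. The share of members called in this comparison is near that of the genes tested.

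Without a stimulus, none of the 6 was called between genotypes by edgeR or DESeq2, and 2 (*Nr4a1* and *Nr4a2*) had an unadjusted edgeR p under 0.05. Leaving out untreated Mcu-/- replicate 4 took their log2 differences from 0.56 to 0.21 and from 1.03 to 0.42 (edgeR adjusted p = 0.660 and 0.536). Libraries of the untreated genotypes overlapped for all 6, and 7.09% of all tested genes had no overlap there. Of all tested genes only 0.128% were called higher and 0.222% lower. Zymosan raised 5 of the 6 in Mcu-/- cells, all but *Nr4a1*, against 34.3% of genes higher and 39.4% lower. With 3 and 4 libraries the exact permutation test cannot go below p = 0.0571 in that comparison. The zymosan responses of the genotypes differed for 1 member, *Egr3*, which was called lower, against 15.2% of genes called higher and 20% called lower. Without untreated Mcu-/- replicate 4, that difference was called for 3 members: *Egr3* and *Nr4a1* with a smaller rise in Mcu-/- cells and *Nr4a2* with a larger one. In that fit 31.0% of genes were called higher and 29.3% lower.

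**Figure D1:**
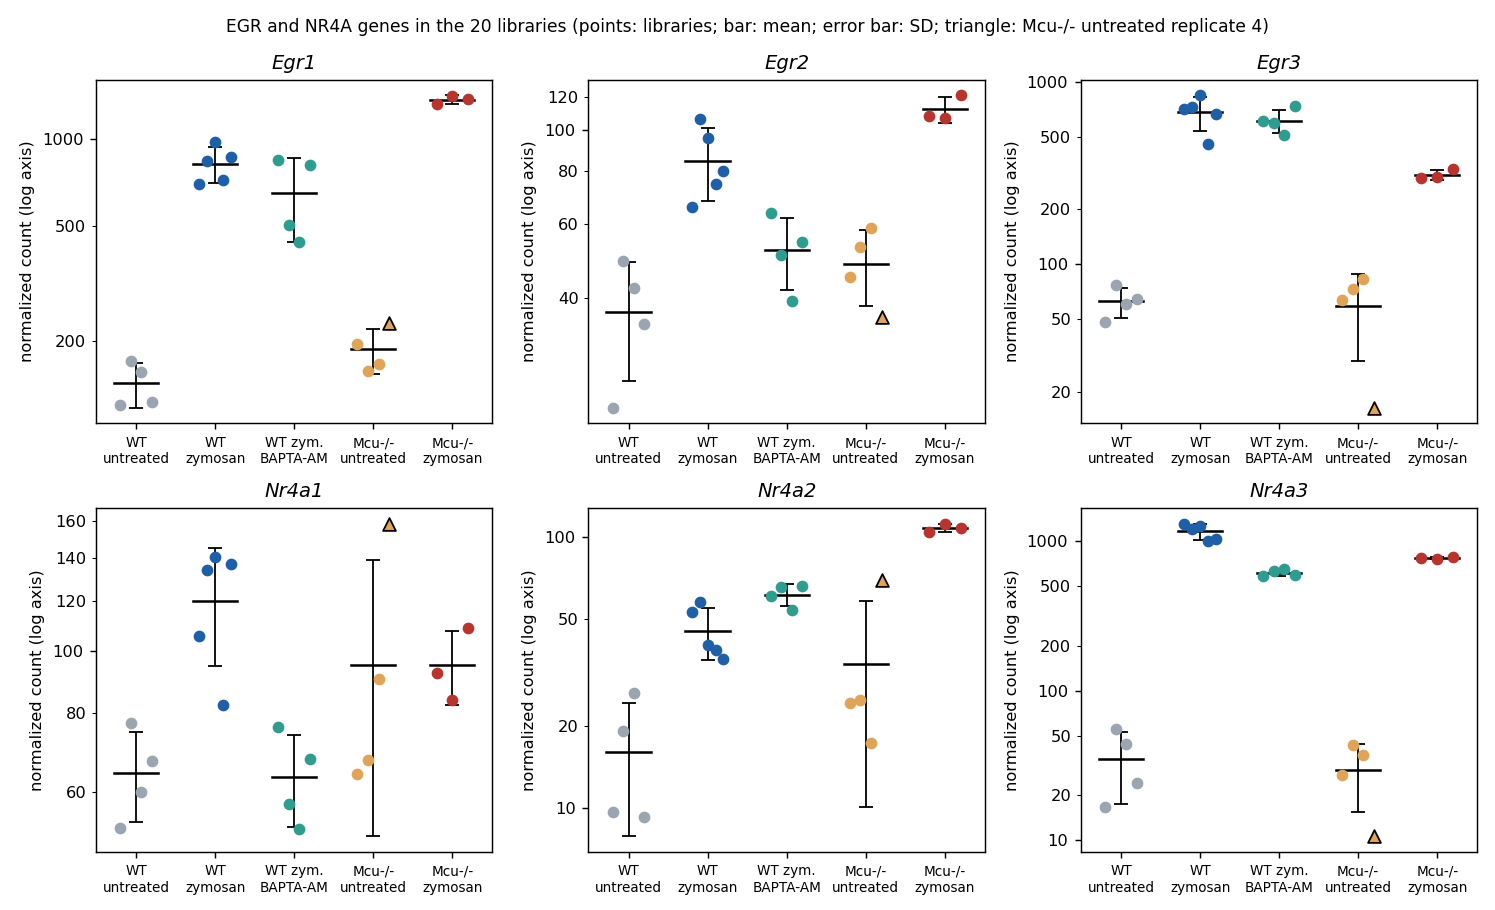
Normalized counts (log axis) of the 6 genes in each of the 20 libraries by group, where points are libraries, horizontal bars are means, error bars are SDs and the triangle is untreated Mcu-/- replicate 4. *Nr4a3* and *Egr3* rose most with zymosan in WT cells and reached lower levels in Mcu-/- than in WT cells, whereas *Egr1* and *Nr4a2* were highest in Mcu-/- cells with zymosan.

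*Egr1* (ENSMUSG00000038418) encodes the founding zinc finger factor of the family and lies on chromosome 18 of mm10 from 34859823 to 34864984, plus strand. Its normalized counts in untreated WT libraries were 119.5, 171, 156 and 123. With zymosan they were 702, 838, 982, 720.4 and 868. All 5 stimulated libraries exceeded all 4 untreated ones, a log2 rise of 2.53 (SE 0.19, edgeR adjusted p = 7.03e-10) and the smallest p an exact two-sided permutation test allows with 5 and 4 libraries, 0.0159. With zymosan and BAPTA-AM the libraries split into a high pair at 845 and 816 and a low pair at 503 and 440.2, overlapping the libraries without the chelator. The difference was -0.33 on the log2 scale (95% interval -0.69 to 0.02, edgeR adjusted p = 0.233). It was called without untreated Mcu-/- replicate 4, a library of neither group, at -0.32 (edgeR adjusted p = 0.0232), where the shared spread is smaller, as given above.

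In zymosan-treated Mcu-/- cells *Egr1* reached 1322, 1417 and 1380.3 normalized counts, above every other library of the series. The difference from WT was 0.74 on the log2 scale, 1.67-fold (SE 0.18, edgeR adjusted p = 0.00158), and it remained called in all 26 alternative fits, between 0.69 and 0.81. Untreated Mcu-/- libraries had 195, 157, 166 and 229.9, a log2 difference from untreated WT of 0.39 (95% interval -0.04 to 0.81, edgeR adjusted p = 0.363). Zymosan thus raised *Egr1* 7.35-fold in Mcu-/- and 5.76-fold in WT cells, and these responses were not called different (0.35, 95% interval -0.22 to 0.92, edgeR adjusted p = 0.324).

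*Egr2* (ENSMUSG00000037868, chromosome 10 from 67535475 to 67542188, plus strand), known from myelination and from macrophage and lymphocyte differentiation, responded to zymosan less than *Egr1* and *Egr3* did and was lowered by the chelator. Untreated WT libraries had 22.0, 49.0, 42.4 and 34.7 normalized counts. With zymosan they had 65.8, 107, 95.7, 74.5 and 80.0. The ranges did not overlap, and the log2 rise was 1.19 (SE 0.21, edgeR adjusted p = 4.79e-05). BAPTA-AM with zymosan gave 63.8, 50.6, 39.3 and 54.2, below every library with zymosan alone, a log2 difference of -0.70 (SE 0.20, edgeR adjusted p = 0.0300). That call was lost when WT zymosan replicate 2 or 3 (edgeR adjusted p = 0.0813 and 0.0680) or BAPTA-AM replicate 2, 3 or 4 (0.0778, 0.0979 and 0.0636) was left out. Against untreated WT cells the BAPTA-AM group was 0.49 higher on the log2 scale (95% interval 0.02 to 0.97, edgeR adjusted p = 0.0626), with overlapping libraries. This difference was called without WT untreated replicate 2 (0.66, edgeR adjusted p = 0.0217), without BAPTA-AM replicate 3 (0.60, 0.0337) or without untreated Mcu-/- replicate 4 (0.50, 0.0262), in a fit of those groups alone (0.50, 0.0301) and by DESeq2 (0.51, DESeq2 adjusted p = 0.0438).

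Mcu-/- cells with zymosan had 108, 107 and 121 normalized counts of *Egr2*, just above the highest WT library. The log2 difference of 0.41 (95% interval -0.03 to 0.84) had an edgeR adjusted p of 0.0947. It fell to 0.0244 without untreated Mcu-/- replicate 4 to 0.04996 without WT zymosan replicate 2 and to 0.0198 in a fit of those groups alone. Untreated Mcu-/- libraries had 45.0, 52.8, 58.7 and 36.0, which overlapped untreated WT, and zymosan raised *Egr2* by 1.22 on the log2 scale (edgeR adjusted p = 6.47e-05), nearly the WT value.

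*Egr3* (ENSMUSG00000033730, chromosome 14 from 70077203 to 70082614, plus strand), a relative of *Egr2* that is needed for muscle spindles, behaved unlike *Egr1* and *Egr2* between genotypes. Untreated WT libraries had 48.3, 77.0, 60.9 and 64.8 normalized counts. With zymosan they had 709, 725, 842, 455 and 668, a log2 rise of 3.44 (SE 0.28, edgeR adjusted p = 1.65e-09), or 10.8-fold. With BAPTA-AM and zymosan the values 613, 595, 509.6 and 732 lay within that range. The log2 difference was -0.15 (95% interval -0.63 to 0.33, edgeR adjusted p = 0.766).

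Zymosan brought *Egr3* in Mcu-/- cells to 299, 299 and 331 normalized counts, below all 5 WT libraries. The log2 difference was -1.13 (SE 0.26, edgeR adjusted p = 0.00113), 0.456-fold, and it remained called in all 26 alternative fits, between -1.25 and -1.04. Untreated Mcu-/- libraries had 64.0, 73.3, 82.8 and, in replicate 4, 16.4, against which the log2 difference from untreated WT was -0.07 (edgeR adjusted p = 0.916). The *Egr3* response to zymosan was 2.38 in Mcu-/- and 3.44 in WT cells on the log2 scale, a difference of -1.06 (SE 0.40, edgeR adjusted p = 0.0482). The call sits at the threshold: leaving out any 1 of 17 libraries took its edgeR adjusted p to between 0.0534 and 0.124, namely each of the WT untreated libraries but replicate 2, each of the WT zymosan libraries but replicate 4, all 4 BAPTA-AM libraries, untreated Mcu-/- replicates 1 to 3 and all 3 Mcu-/- zymosan libraries. Without untreated Mcu-/- replicate 4 the difference was -1.36 (edgeR adjusted p = 1.33e-05).

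The fourth family member and the corepressors were read beside them. *Egr4* had 5 counts or fewer in every library and was not tested. *Nab1* rose with zymosan in WT cells from 2442 ± 67.8 (SD, n = 4) to 3186 ± 94.4 (n = 5) normalized counts and stood at 3868 ± 36.2 (n = 4) with BAPTA-AM and 3983 ± 35.9 (n = 3) in Mcu-/- cells. Its log2 differences from WT zymosan were 0.28 (edgeR adjusted p = 0.00172) and 0.32 (edgeR adjusted p = 0.000137). *Nab2*, itself a described EGR target, fell with zymosan, and was 0.24 higher with BAPTA-AM than with zymosan alone (edgeR adjusted p = 0.0486). It went from 1143, 1324, 1409 and 1181 in untreated WT cells to 786, 866, 893, 849 and 932 with zymosan (log2 fold change -0.55, edgeR adjusted p = 4.17e-06). *Nab2* in Mcu-/- cells with zymosan was 371, 426 and 358, well below any other library, a log2 difference from WT of -1.17 (SE 0.09, edgeR adjusted p = 1.16e-08). The zymosan response of *Nab2* differed between genotypes by -1.04 (SE 0.12, edgeR adjusted p = 5.18e-06), whereas untreated levels of 1287, 1135, 1201 and 1016 overlapped WT.

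*Nr4a3* (ENSMUSG00000028341, chromosome 4 from 48045153 to 48086447, plus strand), which encodes NOR1, had the largest zymosan response of the 6 in both genotypes. Untreated WT libraries had 16.7, 55.1, 44.1 and 24.3 normalized counts. With zymosan they had 1313, 1206, 1268, 1006 and 1031, a log2 rise of 5.03 (SE 0.25, edgeR adjusted p = 1.44e-12). With BAPTA-AM and zymosan the 4 libraries had 588, 631, 651 and 592, all below the lowest library without chelator. The log2 difference was -0.92 (SE 0.19, edgeR adjusted p = 0.00282), or 0.528-fold, and it remained called in all 27 alternative fits, between -0.97 and -0.86. The level with BAPTA-AM was still 17.3-fold above untreated WT cells (log2 4.11, SE 0.26, edgeR adjusted p = 4.73e-11).

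Mcu-/- cells with zymosan had 777, 757 and 785 normalized counts of *Nr4a3*, above all BAPTA-AM libraries and below all WT zymosan libraries. The log2 difference from WT was -0.59 (SE 0.20, edgeR adjusted p = 0.0180), and without the Mcu-/- zymosan library of column 4 it was -0.58 (edgeR adjusted p = 0.0560). Untreated Mcu-/- libraries had 27.4, 43.2, 36.9 and, in replicate 4, 10.6, a log2 difference from WT of -0.25 (95% interval -0.93 to 0.43, edgeR adjusted p = 0.705). Zymosan raised *Nr4a3* 25.8-fold in Mcu-/- cells, and the responses were not called different between genotypes (-0.34, 95% interval -1.15 to 0.46, edgeR adjusted p = 0.508). *Nr4a3* was therefore lower than in WT zymosan cells both with the chelator and without *Mcu*, comparisons that share the 5 WT zymosan libraries.

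*Nr4a1* (ENSMUSG00000023034, chromosome 15 from 101254269 to 101274795, plus strand) encodes NUR77, which marks antigen receptor signals in lymphocytes and is needed for patrolling monocytes. Its level in untreated WT libraries was 52.7, 77.0, 60.0 and 67.1 normalized counts. With zymosan it was 106, 134, 141, 82.4 and 137, higher in every library, a log2 rise of 0.91 (SE 0.24, edgeR adjusted p = 0.00233). Scaling by library totals in place of TMM lowered the median of all genes by 0.49 on the log2 scale in this comparison, and *Nr4a1* then rose by 0.42 (edgeR adjusted p = 0.0983), the only member whose call depended on the scaling here. BAPTA-AM with zymosan gave 75.9, 57.4, 52.4 and 67.8, below every library with zymosan alone and across the untreated range. The log2 difference from zymosan alone was -0.92 (SE 0.24, edgeR adjusted p = 0.0167). It was not called without BAPTA-AM replicate 2 (-0.87, edgeR adjusted p = 0.0554) or replicate 3 (-0.84, 0.0543). The difference from untreated WT was -0.01 (95% interval -0.56 to 0.54, edgeR adjusted p = 0.969).

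In untreated Mcu-/- cells *Nr4a1* had 64.0, 67.4 and 90.3 normalized counts in replicates 1 to 3 and 159 in replicate 4, the highest value of the series. With zymosan the Mcu-/- libraries had 92.3, 83.9 and 109. With replicate 4 the response to zymosan was 0.00 on the log2 scale (95% interval -0.55 to 0.56, edgeR adjusted p = 0.988), and without it 0.37 (edgeR adjusted p = 0.0550). The responses of the genotypes differed by -0.90 with it (SE 0.35, edgeR adjusted p = 0.0558) and by -0.54 without it (edgeR adjusted p = 0.0430). Leaving out WT zymosan replicate 4 or untreated Mcu-/- replicate 1 or 2 also brought a call, with differences of -1.01, -1.05 and -1.03 (edgeR adjusted p = 0.0329, 0.0291 and 0.0341). Between genotypes under zymosan the difference was -0.34 (95% interval -0.87 to 0.20, edgeR adjusted p = 0.259).

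*Nr4a2* (ENSMUSG00000026826, chromosome 2 from 57106830 to 57124003, minus strand), which encodes NURR1, a factor needed for dopaminergic neurons, had the lowest mean level per exon length in 4 of the 5 groups, all but untreated Mcu-/- cells. Without replicate 4 of those cells it was lowest there too. Only in WT cells with zymosan alone were its libraries free of overlap with those of the next member. Untreated WT libraries had 9.67, 19.2, 26.5 and 9.25 normalized counts, from 8 to 30 reads each. With zymosan they had 52.8, 57.6, 40.0, 38.4 and 35.4, a log2 rise of 1.44 (SE 0.37, edgeR adjusted p = 0.00180). It was the only member with a higher mean under the chelator: 60.5, 65.3, 53.7 and 65.7, overlapping zymosan alone, a log2 difference of 0.45 (95% interval -0.22 to 1.12, edgeR adjusted p = 0.427). A fit of those groups alone called it (0.46, edgeR adjusted p = 0.0386).

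Mcu-/- cells with zymosan had 104, 112 and 108 normalized counts of *Nr4a2*, above every other library. The log2 difference from WT was 1.27, 2.40-fold (SE 0.33, edgeR adjusted p = 0.00267), and it remained called in all 25 alternative fits that tested it, between 1.19 and 1.37. Untreated Mcu-/- libraries had 24.4, 24.9, 17.3 and, in replicate 4, 69.5. With that library the difference from untreated WT was 1.03 (95% interval 0.23 to 1.83, edgeR adjusted p = 0.241), and without it 0.42 (edgeR adjusted p = 0.536). The responses of the genotypes differed by 0.23 with it (edgeR adjusted p = 0.754) and by 0.84 without it (edgeR adjusted p = 0.0280).

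**Figure D2:**
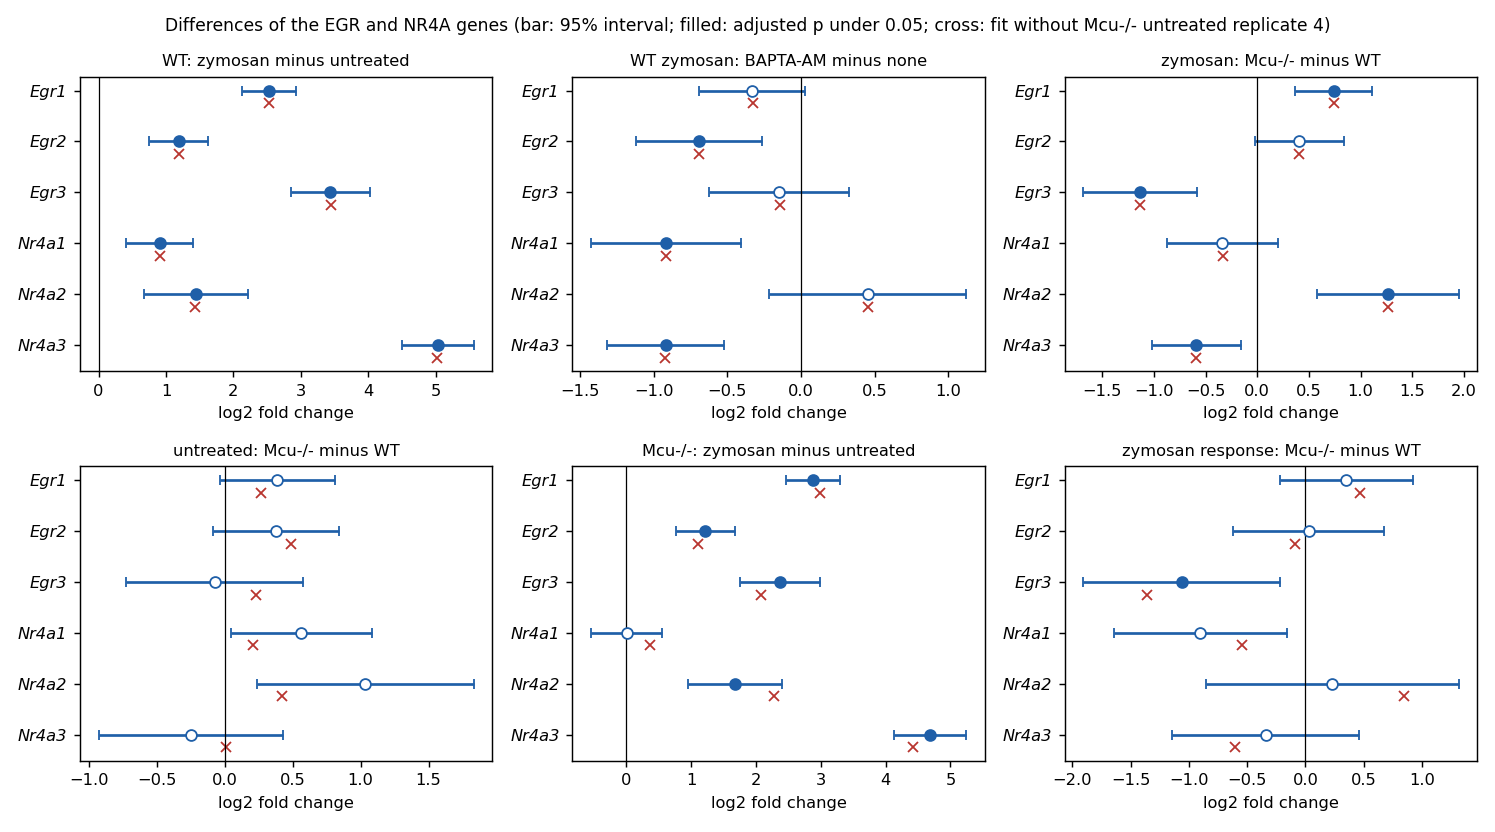
Log2 fold changes of the 6 genes in 6 comparisons, where bars are 95% intervals, filled points have an edgeR adjusted p under 0.05 and red crosses are the values without untreated Mcu-/- replicate 4. All 6 points lie above 0 for zymosan in WT cells, whereas between genotypes under zymosan *Egr1* (0.74) and *Nr4a2* (1.27) lie above 0 and *Egr3* (-1.13) and *Nr4a3* (-0.59) below it.

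The study's design asks which genes are higher without *Mcu* and lower with BAPTA-AM. None of the 6 was called so by edgeR, at an unadjusted p under 0.05 or by DESeq2, against 1.79% of all tested genes by edgeR. *Egr1* and *Nr4a2* were called higher in Mcu-/- cells, with BAPTA-AM differences of -0.33 and 0.45 that were not called. *Egr3* was called lower in Mcu-/- cells with a BAPTA-AM difference of -0.15, and *Nr4a3* was called lower in both. *Egr2* and *Nr4a1* were called lower with BAPTA-AM only, and their differences between genotypes were 0.41 and -0.34. Without untreated Mcu-/- replicate 4, both *Egr1* (0.74 and -0.32) and *Egr2* (0.40 and -0.69) were called higher in Mcu-/- cells and lower with BAPTA-AM, as were 6.33% of all genes in that fit.

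Levels of different genes were compared per length, as RPKM, the CPM of the TMM-scaled library per kilobase of exon. In untreated WT cells *Egr1* led at 1.54 ± 0.272 RPKM (SD, n = 4), without overlap with *Nr4a1* at 0.887 ± 0.143. *Egr3* (0.691 ± 0.130), *Egr2* (0.528 ± 0.165), *Nr4a3* (0.284 ± 0.143) and *Nr4a2* (0.193 ± 0.0990) followed, each overlapping its neighbour in that order. With zymosan *Nr4a3* reached 9.44 ± 1.13 RPKM (n = 5), *Egr1* 8.89 ± 1.24 and *Egr3* 7.48 ± 1.56, which overlapped one another, while *Nr4a1* (1.66 ± 0.349), *Egr2* (1.21 ± 0.235) and *Nr4a2* (0.536 ± 0.116) stayed far below. With BAPTA-AM *Egr3* (6.74 ± 1.01, n = 4) exceeded *Nr4a3* (4.99 ± 0.247) without overlap, and *Egr1* (7.04 ± 2.26) overlapped both. *Egr1* stood alone in Mcu-/- cells with zymosan at 14.9 ± 0.519 RPKM (n = 3), followed without overlap by *Nr4a3* (6.26 ± 0.113) and *Egr3* (3.41 ± 0.205). Before zymosan those cells had 2.02 ± 0.357 RPKM of *Egr1* (n = 4) and 1.31 ± 0.608 of *Nr4a1*. Without untreated Mcu-/- replicate 4 these were 1.87 ± 0.217 and 1.02 ± 0.198 (n = 3).

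Ratios between members within a library do not depend on how libraries are scaled, and these pairs were chosen after the values were seen, so they are described without a test. Per length, the ratio of *Egr1* to *Egr3* was 1.86 to 2.52 in untreated WT libraries, 0.973 to 1.56 with zymosan and 0.830 to 1.35 with zymosan and BAPTA-AM. The ratio in Mcu-/- cells was 1.97 to 2.99 in untreated replicates 1 to 3 and 4.09 to 4.65 with zymosan. Zymosan thus went with a lower ratio in all WT and a higher one in all Mcu-/- libraries, save untreated replicate 4 at 13.8. The ratio of *Nr4a3* to *Nr4a2* was 1.13 to 1.94 in untreated WT libraries, 14.2 to 21.5 with zymosan, 6.11 to 8.22 with BAPTA-AM and 4.59 to 5.05 in Mcu-/- cells with zymosan. That of *Nr4a3* to *Nr4a1* was 4.41 to 7.28, 4.54 to 7.28 and 4.23 to 5.29 in the same stimulated groups, which overlapped. *Nr4a3* made up 13.8% to 25.7% of NR4A transcripts per length in untreated WT cells, where *Nr4a1* made up 55.2% to 75.1%, and 78.3% to 83.6% with zymosan.

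**Figure D3:**
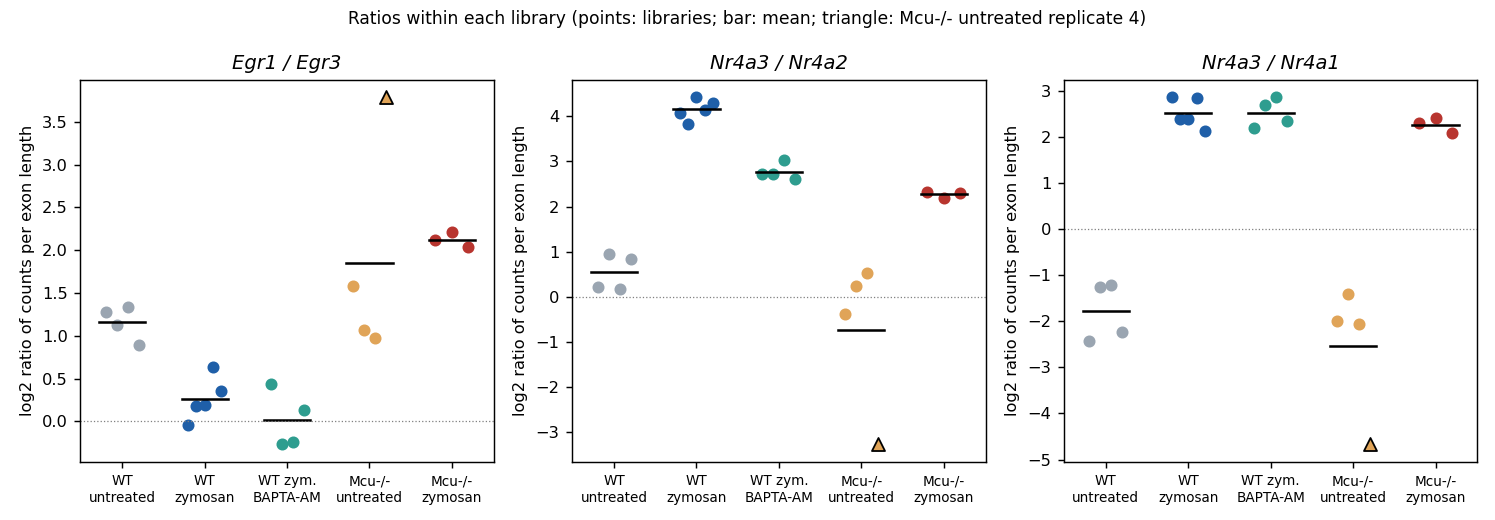
Log2 ratios of counts per exon length for 3 pairs of members in each library by group, where bars are means and the triangle is untreated Mcu-/- replicate 4. The ratio of *Egr1* to *Egr3* was near 0 in WT cells with zymosan and above 2 in Mcu-/- cells with zymosan, and that of *Nr4a3* to *Nr4a2* separated the 3 stimulated groups.

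Genes that act on EGR and NR4A promoters were read from lists of known factors. Of all tested genes, zymosan in WT cells raised 32.4% and lowered 36.8%, and BAPTA-AM raised 6.43% and lowered 6.33%. Between genotypes under zymosan, 31.8% were higher and 30.3% lower in Mcu-/- cells. Without untreated Mcu-/- replicate 4 these shares were 37.2% and 41.3%, 15.3% and 16.5%, and 36.4% and 33.7%. Every list count below stands beside these shares. Of 6 genes for SRF and its partners, 2 rose and 4 fell with zymosan in WT cells (median -0.44, against -0.04 over all genes). *Elk4* rose by 1.55 on the log2 scale (edgeR adjusted p = 9.38e-17) and *Elk3*, a ternary complex factor that can repress, fell by 1.18 (edgeR adjusted p = 1.11e-10). With BAPTA-AM 2 rose, led by *Mkl2* (0.54, edgeR adjusted p = 0.00460), and *Elk3* fell by 0.55 (edgeR adjusted p = 0.000170). *Elk3* was 1.29 higher in Mcu-/- than in WT cells with zymosan (SE 0.08, edgeR adjusted p = 1.11e-09), where 2 of the 6 were higher and 4 lower, with *Elk1* lowest at -0.55 (edgeR adjusted p = 5.12e-06). Its zymosan response differed between genotypes by 1.29 (edgeR adjusted p = 3.26e-07).

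Of 14 tested genes for CREB, CRTC, MEF2 and class IIa histone deacetylases, zymosan raised 2 and lowered 10 in WT cells (median -0.36). *Crem*, a CREB relative with an inducible repressor form, rose by 2.12 (edgeR adjusted p = 3.68e-12), and *Hdac7*, a class IIa deacetylase, fell by 2.49 (edgeR adjusted p = 3.45e-12). With BAPTA-AM 1 was called, *Hdac5* at 0.28 (edgeR adjusted p = 0.00407), and 4 were higher and 1 lower without untreated Mcu-/- replicate 4. In Mcu-/- cells with zymosan 5 were higher and 2 lower (median 0.08, against 0.02 over all genes), with *Hdac9* at 2.44 (SE 0.32, edgeR adjusted p = 5.91e-06) and *Crtc2* at -0.24 (edgeR adjusted p = 0.00450). These counts were 6 and 4 without untreated Mcu-/- replicate 4. *Hdac9* had 822 ± 24.7 normalized counts (n = 3) in those cells and 151 ± 24.7 (n = 5) in WT cells.

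Among 9 tested genes for calcineurin and NFAT, *Rcan1*, an NFAT target that inhibits calcineurin and is widely used as a readout of it, moved in opposite directions in the perturbations. It rose by 2.89 with zymosan in WT cells (edgeR adjusted p = 6.51e-10), was lower with BAPTA-AM (log2 difference -1.34, SE 0.20, edgeR adjusted p = 0.000175) and was 1.11 higher in Mcu-/- cells (SE 0.21, edgeR adjusted p = 0.000165). *Nfatc2* fell by 3.44 with zymosan in WT cells (edgeR adjusted p = 1.34e-14). In all, 2 of the 9 rose and 4 fell with zymosan, 3 fell with BAPTA-AM (4 fell and 1 rose without untreated Mcu-/- replicate 4), and 4 were higher and 1 lower in Mcu-/- cells, *Ppp3r1* at -0.15 (edgeR adjusted p = 0.00277). None of the 9, *Rcan1* included, was called for a different zymosan response between genotypes. Without untreated Mcu-/- replicate 4, 5 were called higher and 1 lower there, against 31.0% and 29.3% of all genes. The retinoid X receptor gene *Rxra*, from the list of NR4A partners, fell by 2.74 with zymosan in WT cells (edgeR adjusted p = 8.32e-17). *Rxra* was 0.30 higher with BAPTA-AM (edgeR adjusted p = 0.0113) and 0.69 higher in Mcu-/- cells (edgeR adjusted p = 1.39e-06). *Rxrb* fell by 0.51 with zymosan in WT cells (edgeR adjusted p = 4.25e-07) and differed by 0.16 with BAPTA-AM (edgeR adjusted p = 0.108) and by -0.15 in Mcu-/- cells (edgeR adjusted p = 0.0649), both of which were called without untreated Mcu-/- replicate 4. *Rxrb* is named after its values were seen, and *Rxrg* was not tested.

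Of 38 other immediate early genes, zymosan raised 23 and lowered 9 in WT cells (median 0.93), from *Dusp2*, a nuclear MAP kinase phosphatase, at 5.94 (edgeR adjusted p = 4.78e-20) to *Ier5l* at -4.13 (edgeR adjusted p = 3.31e-11). BAPTA-AM lowered 9 and raised 3 (median -0.20, against 0.00 over all genes), with *Nfil3* at -0.80 (edgeR adjusted p = 0.000262) and *Klf2* at 0.76 (edgeR adjusted p = 0.0186). With replicate 4 of untreated Mcu-/- cells left out, 21 were lower and 4 higher, and the calls over all genes rose as well, to 16.5% lower and 15.3% higher. In Mcu-/- cells with zymosan 18 were higher and 7 lower than in WT (median 0.23), against 31.8% and 30.3% of all genes. They ran from *Ctgf*, a matricellular protein gene also expressed by fibroblasts, at 3.09 (SE 0.73, edgeR adjusted p = 0.00130) to *Klf10* at -1.97 (SE 0.08, edgeR adjusted p = 2.40e-12). Without untreated Mcu-/- replicate 4, 21 were higher and 11 lower, against 36.4% and 33.7% of all genes. *Ctgf* had 414 ± 27.5 normalized counts (n = 3) in Mcu-/- cells with zymosan and 48.3 ± 13.0 (n = 5) in WT cells with zymosan. A link to the stromal markers given above was not tested.

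Of 16 genes whose promoters are known for EGR sites, zymosan raised 9 and lowered 7 in WT cells (median 0.93). *F3*, which encodes tissue factor, went from 1 to 3 reads per untreated WT library to 110 to 133 with zymosan, and *Pdgfb*, a growth factor gene, fell by 3.30 (edgeR adjusted p = 4.53e-08). BAPTA-AM lowered 4 and raised 3, with *F3* at -1.20 (SE 0.15, edgeR adjusted p = 3.22e-05) and *Vegfa* at 0.39 (edgeR adjusted p = 0.0170). These counts were 10 and 4 without untreated Mcu-/- replicate 4, in the fit with 16.5% of all genes lower and 15.3% higher. In Mcu-/- cells with zymosan 8 were higher and 4 lower than in WT (median 0.22), with *Pdgfb* at 3.35 (SE 0.35, edgeR adjusted p = 3.94e-07), 946 ± 34.1 against 92.5 ± 11.2 normalized counts, and *Nab2* lowest. *F3* had 286 to 364 reads per library in those cells. For *Egr1* and for these genes the directions are listed side by side and no link between them was tested.

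**Figure D4:**
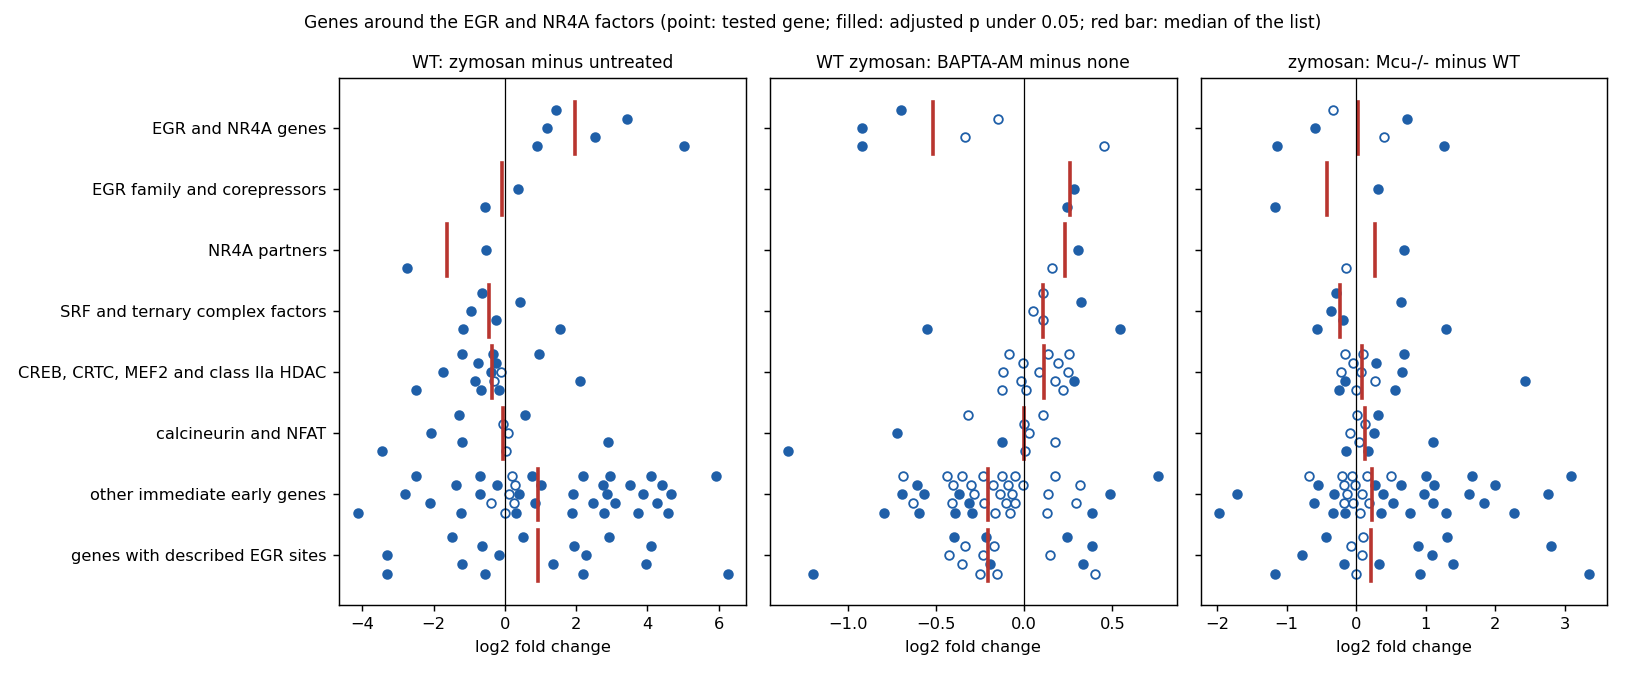
Log2 fold changes of each tested gene of the lists in 3 comparisons, where filled points have an edgeR adjusted p under 0.05 and red bars are list medians. The EGR and NR4A genes all rose with zymosan in WT cells, spread around 0 in Mcu-/- against WT cells, and had a median of -0.51 with BAPTA-AM.

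The genes whose log2 CPM followed each member most closely over the 20 libraries are given with Pearson's r as a description, since the libraries share their groups. *Rnf24*, *Ifnb1* (interferon beta) and *Cxcl2* (a neutrophil chemokine) were nearest to *Egr1*, with r of 0.985, 0.983 and 0.983. *Igsf6*, *Apobec3* and *Ptprc* (the CD45 phosphatase) were nearest to *Egr3* (0.989, 0.987 and 0.985), and *Olr1* (a scavenger receptor), *Gypc* and *Jarid2* to *Nr4a3* (0.991, 0.989 and 0.989). *Hmgcs1*, an enzyme of cholesterol synthesis, *Lztfl1* and *Chd4*, a chromatin remodeller, were nearest to *Egr2* (0.907, 0.881 and 0.874), and *Gdpd1*, *Gapdh* (a glycolytic enzyme) and *Otud7b* to *Nr4a2* (0.950, 0.949 and 0.947). *Nr4a1* had the lowest values, *Arf2*, *B4galt6* and *Rhobtb1* (0.832, 0.807 and 0.793). Which genes are nearest depends on the library that stands apart and on the measure. Without untreated Mcu-/- replicate 4, *Igsf6*, *Apobec3* and *Ptprc* ranked 21, 58 and 89 for *Egr3*, *Jarid2* ranked 40 and *Gypc* 18 for *Nr4a3*, and *Chd4* ranked 21 and *Lztfl1* 10 for *Egr2*. By Spearman's rho over all libraries the *Egr3* neighbours ranked 93, 153 and 114. Among the members themselves r ran from 0.964 for *Egr3* with *Nr4a3* down to 0.185 for *Egr3* with *Nr4a1*, the latter 0.516 without untreated Mcu-/- replicate 4.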

How the data were processed

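The authors deposited 1 table of raw read counts per gene for 20 BMDM libraries, for which cutadapt trimmed the reads, STAR aligned them to mm10 and HTSeq did the counting. RNA extraction, library construction and sequencing were done by a commercial provider. The kit's strandedness is not given in the sources used here. Every column was matched to a group by its name. The 3 Mcu-/- zymosan columns are numbered 3 to 5 while the labels count 1 to 3, so column numbers name them here.

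The test was that of edgeR 4.0.16 in R 4.3.3 (filterByExpr, TMM, quasi-likelihood test, all 20 libraries, 1 coefficient per group, no covariate). A Benjamini-Hochberg adjusted p under 0.05 over the 11707 genes tested made a call. Intervals are 95% intervals, and each member's log2 CPM was set between groups by a two-sided exact permutation test (prior count 2). RPKM used the union of GENCODE M21 exons. Library totals were 14.4 to 24.0 M, so 1 CPM stands for 14.4 to 24.0 reads. The script was tested on simulated counts. DESeq2 1.42.0 (Wald test) and DESeq2's size factors, other filters, library totals (added after the data were seen), fits of the compared groups alone, a replicate block and each library left out were alternatives. Named genes were the 6 members, *Egr4*, *Nab1*, *Nab2*, *Mcu*, the called genes with the largest rise and fall in each list, and the 3 genes most like each member. Other genes are named as cell type markers. The members, lists, tests and motifs were chosen with earlier results of these data known.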

Additional observations from a re-analysis of the deposited data

Results flagged for a closer look

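*Nr4a2* in untreated Mcu-/- replicate 4 had 69.5 normalized counts, far from 24.4, 24.9 and 17.3 in the other 3 libraries. It was the 1 outlying value found by Dixon's test in 24 groups of 4 or 5 libraries, and chance marks about 1 in 20 groups. The same library held the highest *Nr4a1* value (159) and the lowest *Egr3* (16.4) and *Nr4a3* (10.6) values of all libraries, which did not pass that test. The cause was not tested.

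The zymosan response of *Egr3* differed between Mcu-/- and WT cells by -1.06 on the log2 scale (edgeR adjusted p = 0.0482), and by -1.36 without untreated Mcu-/- replicate 4. Of all tested genes, 20% were called lower with all libraries and 29.3% without that one. Leaving out any 1 of 17 other libraries ended the *Egr3* call (edgeR adjusted p from 0.0534 to 0.124). All 3 Mcu-/- zymosan libraries (299 to 331 normalized counts) lay below the 5 WT ones (455 to 842), and 64.0% of all tested genes had no overlap between those groups.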

How the results depend on the processing

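Over 42 results for single members, 1036 of 1109 alternative values kept the direction and the side of the threshold, 30 lost the call, 17 gained one and 26 changed sign. All changes of sign were in differences that were not called. Library totals shifted the median of all genes by -0.49, -0.43 and -0.52 on the log2 scale in the zymosan responses of WT, BAPTA-AM and Mcu-/- cells, and 13 of 30 RPKM levels moved by more than their SD.

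*Nr4a1* with BAPTA-AM and zymosan against untreated WT was 0.0075 with DESeq2's size factors, 0.0055 by DESeq2, and up to 0.090 with 1 library left out. Its Mcu-/- zymosan response was -0.51 with library totals, -0.014 with no filter, -0.00027 with at least 10 counts in every library, and -0.14 to 0.37 with 1 library left out. For *Egr2* the difference of responses was -0.0093 with library totals and -0.14 to 0.22 with 1 library left out. In untreated cells *Egr3* ran from -0.28 to 0.23 and *Nr4a3* from -0.49 to 0.062, and the *Nr4a2* difference of responses from -0.11 to 0.84, with 1 library left out.

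Members with a smaller zymosan response in Mcu-/- cells (1) were 2 with library totals or DESeq2, 0 with no filter or with only the groups compared, and 0 to 2 with 1 library left out, and those with a larger response were 0 to 1. Members higher in Mcu-/- cells with zymosan were 1 with at least 10 counts in every library, where *Nr4a2* was not tested, and those lower were 1 to 2 with 1 library left out. Members lower with BAPTA-AM (3) were 1 to 4 with 1 library left out, and 1 was higher in a fit of those groups alone. Genes called with BAPTA-AM (1494) were 3529 in that fit and 1036 to 3712 with 1 library left out. Those between untreated genotypes (41) were 112 by DESeq2, 25 with at least 10 counts, 5 with only those groups, and 22 to 391 with 1 library left out. Those whose responses differed (4122) were 3414 to 7039. The ends 391, 3712 and 7039 came without untreated Mcu-/- replicate 4. The causes were not tested.

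Over 16 pairs with the same replicate number, the correlation of deviations was -0.055 to 0.061. These values give no sign of a shared shift, but they cannot tell whether such libraries share an animal or batch. With a replicate block, 879 genes and 1 member (*Nr4a3*) were called with BAPTA-AM, with *Egr2* at -0.68 (edgeR adjusted p = 0.0954) and *Nr4a1* at -0.87 (edgeR adjusted p = 0.0918), and 22 genes between untreated genotypes. No paired analysis was possible because the Mcu-/- zymosan columns carry other numbers than the labels, for comparisons with that group. Raw counts of 8 to 30 limit *Nr4a2* in untreated WT cells.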

Other observations

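In the 4 untreated Mcu-/- libraries a few genes, named here after their values were seen, had levels that no comparison above uses. *Cyr61*, a matricellular protein gene, had 5 to 8 reads in replicates 1 to 3 and 89 in replicate 4, against 69 to 103 in the Mcu-/- zymosan libraries and 8 to 27 in all WT libraries. *Hdac9* had 206, 224 and 208 normalized counts in untreated Mcu-/- replicates 1 to 3 and 776 in replicate 4, against 166 to 206 in untreated WT cells. The B cell receptor gene *Cd79b* had 407 reads in replicate 4, 1404 to 1497 in replicates 1 to 3 and 184 to 243 in the Mcu-/- zymosan libraries.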
